A study of Mus musculus with 9 samples.

Results

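The genes described here encode F-box and TRIM proteins, which choose the targets of ubiquitin ligases. They were picked by symbol alone, Fbxl, Fbxo or Fbxw with a number, or Trim with a number and at most 1 letter, with Fbxl20 left out. The rule found 89 of the 22442 genes in the deposited count tables, 11718 of which had a symbol. There were 43 F-box genes (12 Fbxl, 23 Fbxo and 8 Fbxw) and 46 TRIM genes. No measured value entered the rule, but 28 of the 89 symbols came solely from a deposited table restricted to genes that the isoform libraries had counted, whereas the length table named the other 61.

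The study compared the RNA bound by Chtop, an mRNA export and arginine-methylation partner protein, when its alternative exon 5 is present or absent. The method was iCLIP, in which ultraviolet light crosslinks RNA to protein and the RNA recovered with the protein is sequenced. All cells were N2a Flp-In rtTA, a mouse neuroblastoma line in which doxycycline switches on a cDNA placed at a single recombination site. FLAG-Chtop with exon 5 gave 3 libraries, FLAG-Chtop without exon 5 gave 3, and size-matched inputs gave 3. Induction used 2 µg/mL of doxycycline over 24 hours, after which the cells were irradiated at 254 nm with 0.15 J/cm2, and the FLAG antibody then recovered the tagged protein. Inputs were 2% of lysate taken through the gel without the antibody, and each came from another line: input 1 from the cells lacking exon 5 in the cDNA, input 2 from those with exon 5 and input 3 from FLAG-GFP cells. The tagged cDNA is expressed beside the cell's own Chtop. Each isoform was studied in 1 engineered line, so line and isoform cannot be told apart. The labels describe the replicates as biological and harvested on separate days.

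Ubiquitin is passed from an activating enzyme (E1) to a conjugating enzyme (E2) and, with the help of a ligase (E3), onto a target protein. In SCF ligases the scaffold Cul1 and the linker Skp1 carry an exchangeable F-box protein, which binds the target through leucine-rich repeats (Fbxl), WD40 repeats (Fbxw) or other domains (Fbxo). Most TRIM proteins are ligases in their own right, built from a RING finger, B-boxes and a coiled coil, with a variable C-terminal part that sets what each of them binds. In neurons members of both families act in axon growth, microtubule order and synapse turnover.

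The isoform libraries held 624062 to 1844970 counts and the inputs 75504 to 173342, so 3 counts amounted to 2.16 to 5.67 CPM (a count relative to the TMM-scaled size of its library) in the former and to 16.8 to 21.7 CPM in the latter. PCR copies may be among the counts, so intervals and floors given here cover counting error only. Of the neuroblastoma and neuron markers 12 of 18 were measured, and all 12 were counted in the isoform libraries (summed level 1309 to 2122 CPM, against 826 to 3164 CPM in the inputs). The hepatocyte markers Alb and Apoa1 and the fibroblast markers Col1a2 and Dcn were at 0 in all 9 libraries. The 4 fibroblast markers together had 8 counts in the isoform libraries and 10 in the inputs (up to 72.4 CPM in an input), and the immune and endothelial markers measured had 1 and 2 counts in the isoform libraries and 0 in the inputs. The 2 astrocyte and oligodendrocyte markers measured had 90 isoform counts, 10.1 to 38.7 CPM in each isoform library, and 1 input count. Chtop stood at 385 ± 20.6 CPM with exon 5, 238 ± 36.7 without and 175 ± 256 in the inputs (SD, n = 3 each). Gene counts do not separate Chtop mRNA by exon 5 or by origin, which leaves the isoform labels unchecked.

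F-box and TRIM mRNAs were a small and steady part of the RNA recovered. They made up 0.647%, 0.558% and 0.662% of counts in the libraries with exon 5, 0.640%, 0.570% and 0.578% in those without, and 0.416%, 0.338% and 0.364% in the inputs. Each isoform library had a count for 65 to 71 of the 89 genes, whereas inputs 1, 2 and 3 reached 30, 52 and 18. Of all 22442 genes, the isoform libraries counted 9505 to 10828 each, and inputs 1, 2 and 3 counted 4665, 7412 and 3129. Since 28 of the 89 genes were named solely through counting with the isoforms, part of this gap was set in advance. The inputs were also the shallower libraries, and the part of depth in these numbers was not tested.

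In all, 76 genes had a count, 41 F-box and 35 TRIM, and 59 were counted in all 6 isoform libraries. The 13 genes without any count were mostly TRIM genes (11), such as Trim54 and Trim55 of muscle and Trim43a and Trim43c of the early embryo; the F-box genes among them were Fbxo27 and Fbxw10. Another 8 genes had 1 to 20 counts, among them Trim50 and Trim58, seen solely in an input (12 and 2 counts). Conversely, 17 genes were at 0 in every input and counted with an isoform. Counts were concentrated: the 5 most counted genes held 29.5% of the isoform libraries' F-box and TRIM counts, and the 10 most counted held 48.0%.

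Levels of different genes were compared per kilobase of annotated 5′ UTR, CDS and 3′ UTR. Trim28, the corepressor that KRAB zinc finger proteins recruit to chromatin, was highest at 142 ± 29.5 CPM per kb over the 6 isoform libraries (SD). Its relative Trim24, another chromatin reader, followed at 95.3 ± 17.1, and then Trim67, a TRIM protein of the nervous system, at 78.5 ± 38.4. Below these came Fbxo30 (68.6 ± 14.1), Trim3 (68.0 ± 27.8), Trim46 (65.6 ± 35.9), Fbxl19 (60.5 ± 21.7), Fbxo42 (58.0 ± 9.30), Trim44 (56.6 ± 9.45) and Trim71 (55.6 ± 21.1 CPM per kb). From Trim67 down, neighbours in this order lay within 1 SD of each other. The order is of levels in the crosslinked RNA, which also depend on how abundant each mRNA was; that abundance was not measured apart from the inputs.

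**Figure D1:**
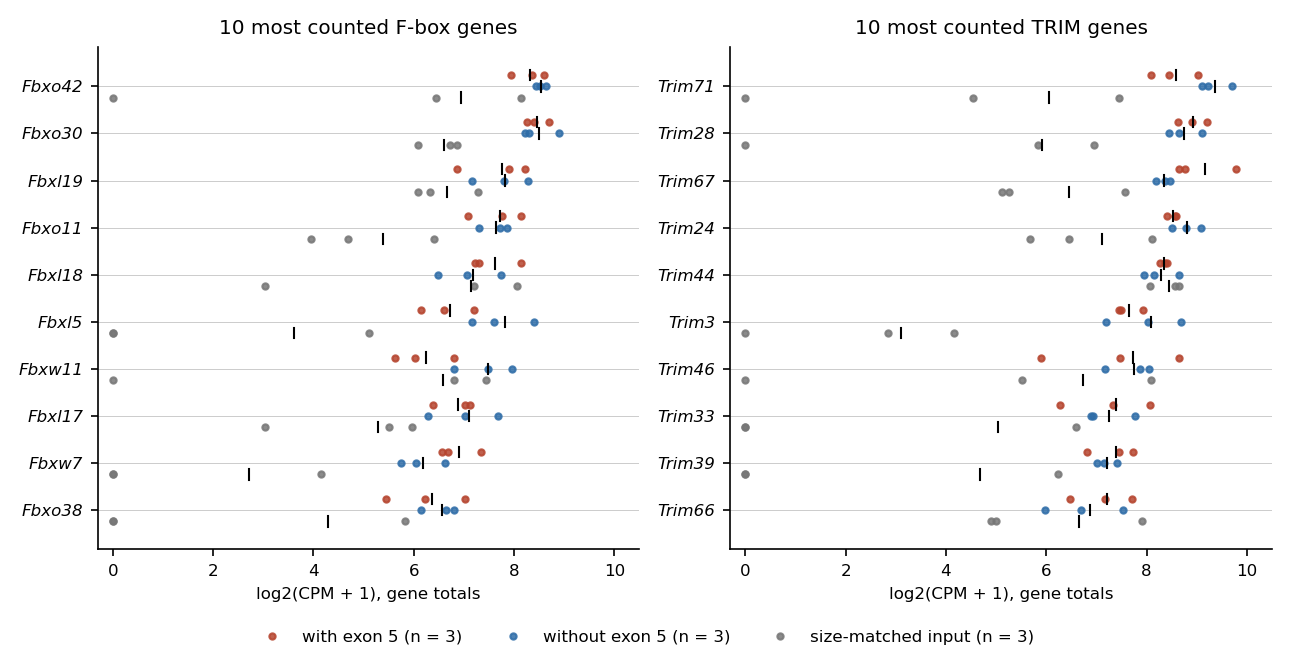
Level of the 10 most counted F-box genes and the 10 most counted TRIM genes in each library, as log2(CPM + 1) of gene totals; points are libraries and black ticks mark the group mean (n = 3). Points at 0 are libraries without a count, all of them inputs, and Trim44 stands out with inputs as high as both isoforms.

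The first question was which of these mRNAs each isoform held above crosslinked RNA of the same size. Trim3, Trim62 and Trim26 passed higher with both isoforms, and Fbxo41 passed with exon 5. Trim3, a TRIM protein of the NHL-repeat group that is abundant in brain, had 122, 119 and 254 counts with exon 5 and 77, 214 and 571 without, against 1, 3 and 0 in the inputs. Every isoform library lay above every input. In edgeR this was a log2 fold change of 4.60 with exon 5 and 5.04 without (SE 1.15 and 1.17, adjusted p = 0.0271 and 0.0210). Trim3 lies on chromosome 7, 105604463 to 105633574 in GRCm38, with a CDS of 2319 bases and a 3′ UTR of 1143 bases.

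Trim62 and Trim26, RING ligases that end in a SPRY domain, were at 0 in all 3 inputs. Trim62 (chromosome 4, 128884044 to 128911326) had 37, 61 and 134 counts with exon 5 and 94, 58 and 145 without. Against a floor of 3 counts per input library, this was at least 4.78-fold higher with exon 5 (edgeR adjusted p = 0.0244) and at least 6.17-fold higher without (adjusted p = 0.0216). Trim26 (chromosome 17, 36837123 to 36859398) had 50, 28 and 96 counts with exon 5 and 50, 65 and 105 without, at least 3.62-fold (adjusted p = 0.0292) and 4.36-fold higher (adjusted p = 0.0271). For both genes all 6 isoform libraries were above the inputs.

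Fbxo41, an F-box gene of neurons, had 99, 13 and 79 counts with exon 5, 21, 8 and 12 without, and 0 in every input. It was at least 4.21-fold higher with exon 5 (edgeR adjusted p = 0.0429), a bound of 2.50-fold without replicate 1 (adjusted p = 0.112), which held 99 of its 191 counts. Without exon 5 the level of 19.3 ± 17.6 CPM was at the floor, at least 1.02-fold higher with an adjusted p of 0.111. Whether the isoforms differed was tested directly and is given further on: they did not pass.

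These 4 genes were 6.45% of the 62 that passed the filter on low counts, where 8.31% of all 8342 genes tested passed higher with exon 5; 0 of the 62 passed lower, against 0.863% of all genes. With exon 5, 22 of the 62 (35.5%, against 29.1% of all genes) had an unadjusted edgeR p under 0.05 and all of these were higher, and DESeq2 and limma-voom also called 0 lower. Without exon 5, 3 of 62 (4.84%) passed higher against 8.12% of all genes, and 0 passed lower against 0.587%. An unadjusted edgeR p under 0.05 was reached by 19 (30.6%, against 28.5% of all genes), 0 of them lower, and DESeq2 and limma-voom called 0 lower. The groups did not overlap, isoform higher, for 26 genes (41.9%) with exon 5 and 27 (43.5%) without, where 33.1% and 35.8% of all genes did so, and isoform lower for 0, where 3.40% and 3.43% did so. The median log2 fold change was 1.84 with exon 5 and 1.72 without, against 1.03 over all genes in both comparisons. With genes at 0 in the inputs set to their bound, the medians of the 62 were 1.63 and 1.53. The value over all genes was left as fitted, so the bounded medians cannot be set against it. A gene can pass the filter through the isoform libraries alone, so these medians do not stand for all 89 genes. By library size alone the medians were 1.23 and 0.97, against 0.35 and 0.33 over all genes.

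The calls rested on the fit and on single libraries. With only the groups compared in the fit, 0 passed in either comparison, and 0 passed in either with the replicate number as a block, while DESeq2 called 13 with exon 5 and 10 without. Leaving out input replicate 2, the deepest input, gave 25 genes with exon 5 and 24 without. Leaving out any 1 isoform library gave 0 in both comparisons, except that 1 gene passed without exon 5 when replicate 1 of the isoform with exon 5 was left out. Of the genes that the length table names, Trim62 and Trim26 passed in both comparisons, 2 of 34 (5.88%), where 7.59% of all genes it names passed with exon 5 and 7.77% without.

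**Figure D2:**
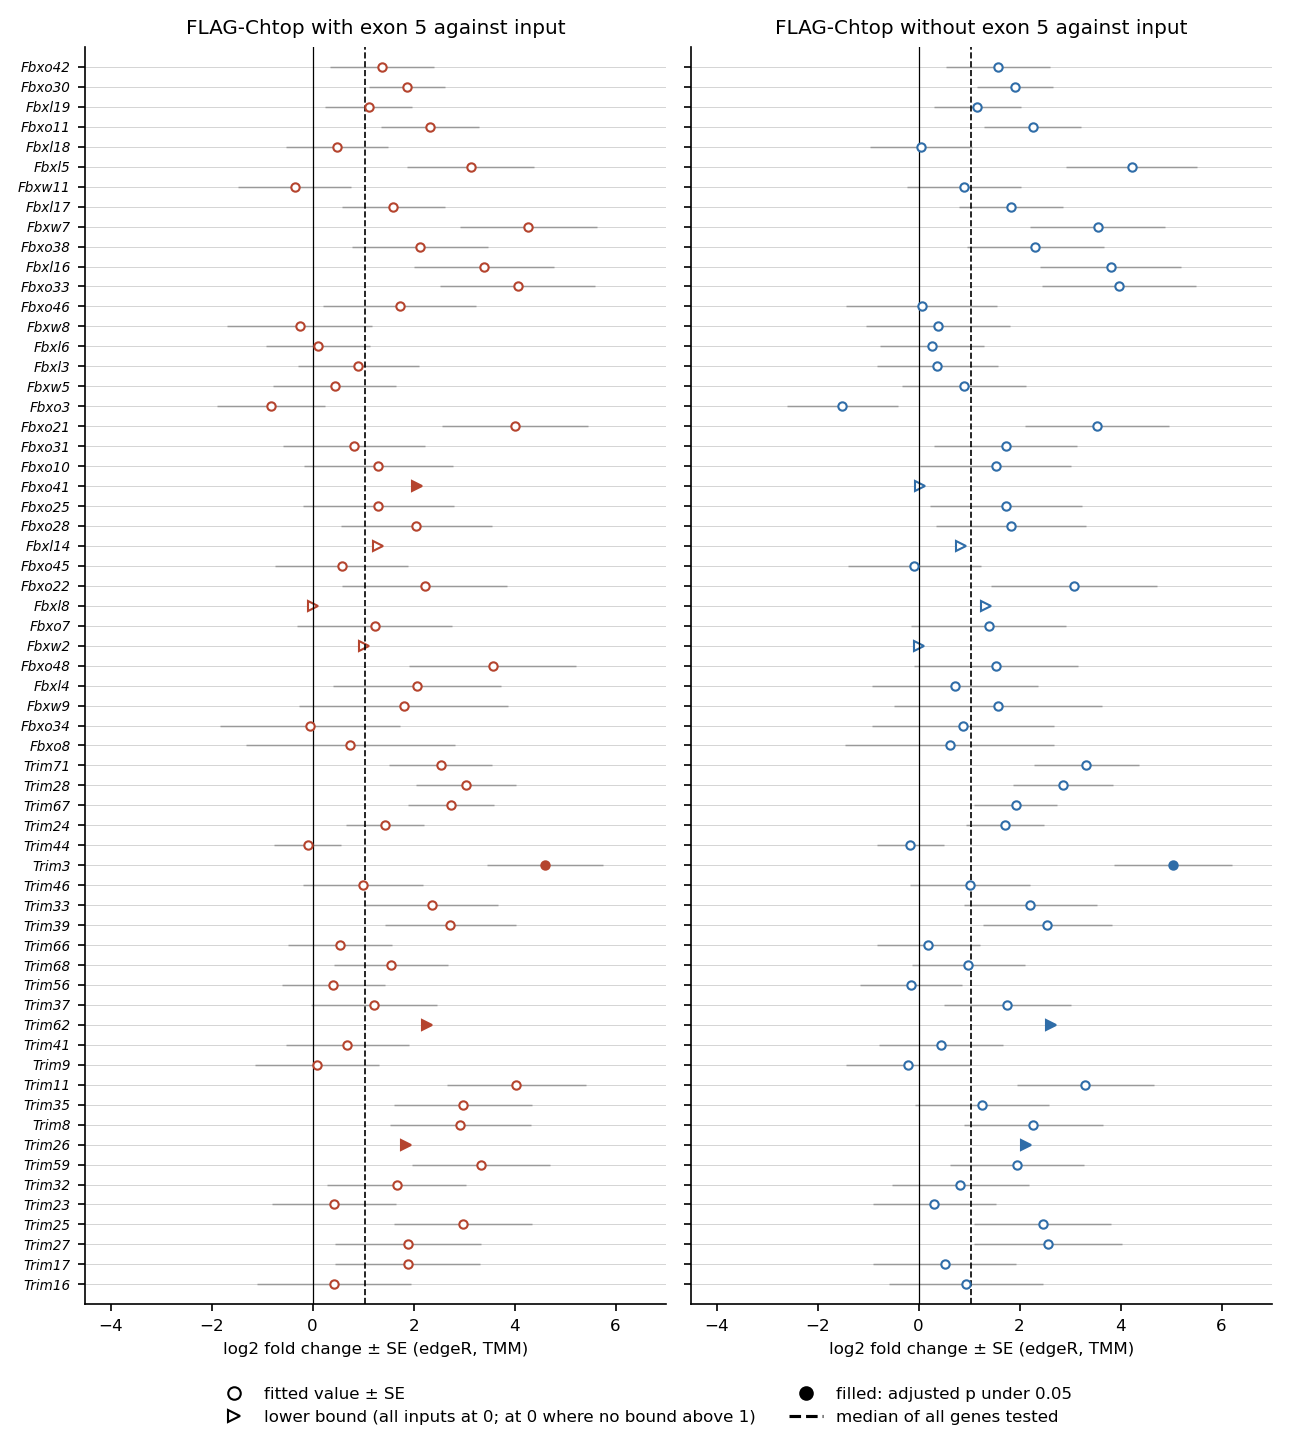
Log2 fold change of each of the 62 tested genes against the size-matched inputs, F-box genes above TRIM genes and each family ordered by summed count; circles are fitted values with their SE, triangles are lower bounds where every input was at 0, and filled symbols passed at an adjusted p under 0.05. Most genes lie right of 0 and around the dashed median of all genes (of fitted values, without bounds), with 4 filled symbols with exon 5 and 3 without.

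Several well-counted genes came near the threshold in 1 comparison. Fbxw7, the WD40 F-box protein that targets cyclin E, Myc and Notch, had 64, 69 and 168 counts with exon 5, 28, 54 and 135 without, and 0, 3 and 0 in the inputs. Its summed counts over library sizes gave a ratio of 20.0 (95% interval 6.77 to 97.5) with exon 5 (edgeR adjusted p = 0.0582) and 12.6 (4.25 to 61.6) without (adjusted p = 0.100). Such an interval treats the libraries of a group as 1 and leaves out their spread. Fbxl14 was at 0 in the inputs and at least 2.46-fold higher with exon 5 (adjusted p = 0.0503). Fbxl8, also at 0 there, was at least 2.51-fold higher without (adjusted p = 0.0540).

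Among the SCF receptors, Fbxl5, the iron-sensing receptor for iron regulatory proteins, had 66, 100 and 73 counts with exon 5, 177, 118 and 269 without, and 0, 6 and 0 in the inputs. In edgeR this was a log2 fold change of 3.13 with exon 5 and 4.22 without (SE 1.26 and 1.30, adjusted p = 0.116 and 0.0542). Fbxo30 had 207, 284 and 349 counts with exon 5, 252, 244 and 436 without, and 17, 12 and 16 in the inputs, the most even inputs of the well-counted F-box genes. The isoform libraries did not overlap the inputs, and the values were 1.88 (SE 0.75, adjusted p = 0.112) and 1.91 (SE 0.75, adjusted p = 0.110). The most counted F-box gene, Fbxo42, had 167, 265 and 340 counts, then 210, 301 and 478, and 14, 50 and 0 in the inputs (log2 fold change 1.38 and 1.58, edgeR adjusted p = 0.406 and 0.338).

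The remaining well-counted F-box genes spread around the median of all genes. Fbxo11 had log2 fold changes of 2.33 with exon 5 and 2.26 without, Fbxo38 of 2.13 and 2.31, Fbxl17 of 1.60 and 1.82, and Fbxl19 of 1.11 and 1.16. Fbxl18 had 43, 26 and 1 input counts and values of 0.48 and 0.05, near 0 and of either sign across settings. Fbxw11, the β-TrCP paralogue that targets β-catenin, had 18, 31 and 0 input counts and values of −0.36 (0.68 with limma-voom) and 0.90. None of these passed (edgeR adjusted p from 0.125 to 0.983).

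The TRIM genes of chromatin were counted deeply. Trim28 had 402, 325 and 412 counts with exon 5, 183, 330 and 763 without, and 0, 10 and 17 in the inputs, with log2 fold changes of 3.04 (SE 0.99, edgeR adjusted p = 0.0639) and 2.86 (SE 0.99, adjusted p = 0.0767). All 6 isoform libraries were above all inputs. Trim24 had 1.43 and 1.72, Trim33, a SMAD4 regulator, 2.36 and 2.22, and their relative Trim66 had 0.54 and 0.20, the last turning sign with scaling. None of these 3 passed (edgeR adjusted p from 0.160 to 0.927).

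The TRIM genes with roles in neurons or in RNA spanned a wide range of values. Trim71, an RNA-binding protein of stem and progenitor cells, had 236, 186 and 544 counts with exon 5, 290, 686 and 829 without, and 28, 4 and 0 in the inputs (log2 fold change 2.54, SE 1.02, and 3.32, SE 1.04; edgeR adjusted p = 0.113 and 0.0583). Trim67 had 296, 271 and 919 counts, then 186, 272 and 407, and 6, 6 and 26 in the inputs (2.74, SE 0.84, and 1.92, SE 0.82; adjusted p = 0.0537 and 0.140). Both were above the inputs in every isoform library. Trim46, which orders microtubules at the axon initial segment, had 44, 8 and 0 input counts and values of 1.00 and 1.01 that were within the spread (adjusted p = 0.635 and 0.626). Trim39 had 12, 0 and 0 input counts and values of 2.73 and 2.55 (adjusted p = 0.174 and 0.203).

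Trim44, which lacks a RING finger, was as high in the inputs as in the immunoprecipitates by gene totals. It had 209, 223 and 354 counts with exon 5 and 131, 233 and 559 without, with 61, 71 and 37 in the inputs, or 325 ± 17.0, 310 ± 81.1 and 347 ± 69.5 CPM (SD, n = 3 each). The groups overlapped. Its log2 fold changes were −0.10 (SE 0.66, edgeR adjusted p = 0.944) and −0.16 (SE 0.66, adjusted p = 0.904), and the sign of both turned in some settings. Its parts went opposite ways. The CDS stood at 284 ± 116 CPM with exon 5, 262 ± 57.6 without and 87.6 ± 80.1 in the inputs. The 3′ UTR stood at 516 ± 183, 587 ± 246 and 671 ± 86.4 CPM. Neither part passed against the inputs.

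Where in the mRNA the counts lay was asked next, with both isoforms together (6 libraries) against the 3 inputs. In the CDS, Trim67, Fbxl5, Trim9, Trim71, Trim3, Trim26, Fbxl14, Trim28 and Trim27 passed higher, 9 of 53 genes tested (17.0%) against 17.6% of all 6376 genes, and 0 passed lower against 1.41%. In the 3′ UTR, 11 of 43 passed higher (25.6%) against 14.5% of all 4984 genes, and 0 passed lower against 1.34%: Trim39, Trim24, Trim68, Fbxo11, Trim3, Trim59, Fbxw8, Trim28, Trim11, Trim35 and Trim62. Only Trim3 and Trim28 were in both sets, and Fbxl14, without an annotated 3′ UTR, could not be. With an unadjusted edgeR p under 0.05 there were 17 genes in the CDS (32.1%, against 37.3% of all genes) and 20 in the 3′ UTR (46.5%, against 37.0%), 0 of them lower, and DESeq2 and limma-voom called 0 lower in either part. The isoform libraries lay above the inputs without overlap for 19 genes in the CDS (35.8%, against 33.0% of all genes) and 20 in the 3′ UTR (46.5%, against 26.5%). They lay below for 0 in both, against 1.16% and 2.13% of all genes. In the CDS 12 of the 53 genes tested were at 0 in every input, and in the 3′ UTR 16 of the 43. Such genes passed the filter on low counts through the isoform libraries alone, where they are high. The shares that passed or did not overlap therefore do not stand for all 89 genes, and their distance from the shares of all genes was not tested. The median log2 fold change was 1.97 in the CDS against 1.54 over all genes, and 2.20 in the 3′ UTR against 1.34. With F-box and TRIM genes at 0 in the inputs set to their bound, it was 1.02 in the CDS and 1.53 in the 3′ UTR. The values over all genes were left as fitted, so the bounded medians cannot be set against them.

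Trim67 and its close relative Trim9, both ligases of the nervous system that bind the netrin receptor DCC, had CDS counts with the isoforms and none in the inputs. Trim67 (chromosome 8, 124791317 to 124834713) had 164, 147 and 532 CDS counts with exon 5, 99, 207 and 192 without, and 0 in each input, at least 12.4-fold higher (edgeR adjusted p = 0.0112; past the threshold in 18 of 18 settings). Trim9 (chromosome 12, 70244533 to 70347869) had 78, 12 and 115, then 30, 41 and 62 CDS counts, against 0 in each input, at least 3.17-fold higher (adjusted p = 0.0273; in 7 of 18 settings). Their inputs were not empty. In the 3′ UTR the inputs held 6, 6 and 8 counts of Trim67 and 35, 0 and 9 of Trim9.

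Fbxl5 (chromosome 5, 43744618 to 43782149) had 66, 74 and 39 CDS counts with exon 5 and 172, 110 and 243 without, against 0, 1 and 0 in the inputs, a ratio of 59.4 (95% interval 10.6 to 2350; edgeR adjusted p = 0.0205). Trim71 had 134, 68 and 279, then 93, 364 and 486, against 5, 0 and 0 (log2 fold change 4.46, SE 1.23, adjusted p = 0.0290). The CDS of Trim28 had 225, 231 and 368, then 151, 258 and 592, against 0, 10 and 0 (3.90, SE 1.18, adjusted p = 0.0376). Fbxl14, a receptor for the Snail transcription factors, has only a CDS annotated, so its counts could lie in no other part. It was at least 1.97-fold higher (edgeR adjusted p = 0.0368; past the threshold in 4 of 18 settings). Trim26 was at least 2.12-fold higher (adjusted p = 0.0323; in 6 of 18 settings) and Trim27 at least 1.56-fold (adjusted p = 0.0488; in 3 of 18).

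In the 3′ UTR every one of the 11 genes was at 0 in all 3 inputs and counted in all 6 isoform libraries. Trim24 (chromosome 6, 37870811 to 37968445; 3′ UTR of 589 bases) had 33, 31 and 57 counts with exon 5 and 50, 63 and 222 without, at least 7.08-fold higher (edgeR adjusted p = 0.0148). Trim39 was at least 6.88-fold higher (adjusted p = 0.0144), Fbxo11, an F-box protein that targets BCL6, at least 6.65-fold (adjusted p = 0.0173), and Trim68 at least 6.07-fold (adjusted p = 0.0166). These 4 passed in 18 of 18 settings, while Trim62, at least 2.81-fold higher, passed in 7. For Fbxo11, replicate 1 with exon 5 held 147 of the 390 isoform counts.

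The other 3′ UTR bounds were at least 4.82-fold for Trim3, 3.41-fold for Trim28, 3.40-fold for Trim59, 3.29-fold for Trim35, 3.27-fold for Fbxw8 (an F-box protein that works with Cul7) and 2.99-fold for Trim11 (edgeR adjusted p from 0.0218 to 0.0320). By family, 9 of 23 TRIM genes and 2 of 20 F-box genes passed in the 3′ UTR, and 7 of 26 TRIM and 2 of 27 F-box genes in the CDS; the difference between families was not tested.

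These part calls, too, moved with the fit and with single libraries. With the replicate number as a block, 3 passed in the CDS and 9 in the 3′ UTR. Without input replicate 2 there were 19 genes in each part. Without any 1 isoform library the CDS gave 1 or 2 calls and the 3′ UTR 4 to 10, the fewest without replicate 3 lacking exon 5. Of the genes that the length table names, 4 of 29 passed in the CDS and 5 of 21 in the 3′ UTR, where 17.0% and 13.8% of all genes it names did so.

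Whether the split between CDS and 3′ UTR within a gene differed from the inputs was tested with diffSpliceDGE of edgeR on 40 genes. Trim67 and Trim9 shifted toward the CDS, and Trim68, a SPRY-domain TRIM gene, toward the 3′ UTR: 2 passed in the first direction, against 5.42% of all 4037 genes tested, and 1 in the second, against 1.07%. Trim67 had 1341 CDS and 523 3′ UTR counts with the isoforms and 0 and 20 in the inputs (adjusted p = 0.0206). Trim9 had 338 and 111 with the isoforms and 0 and 44 in the inputs (adjusted p = 0.0215), 35 of the 44 in input 1. Trim68 had 269 and 370 with the isoforms and 25 and 0 in the inputs (adjusted p = 0.0464). Since 1 part of each gene was empty in the inputs, no fold is given. Trim67 and Trim9 each passed in 10 of 16 settings, and Trim68 in 4 of 16. The calls fell to 0 with the replicate number as a block, without replicate 3 with exon 5 and without replicates 1 or 3 lacking it, and to 1 without input replicate 1 or without replicate 2 lacking exon 5.

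Other genes differed widely in where their counts lay. In the 6 isoform libraries pooled, the CDS held 96.0% of the counts of Fbxl17, which checks the pairing of BTB-domain proteins, 91.2% of Fbxo38, 87.7% of Fbxl5 and 78.3% of Fbxo30. It held 14.4% of Fbxw11, whose 3′ UTR held 72.9%, and 20.5% of Fbxw7. These shares were not scaled to the length of the parts. CDS and 3′ UTR are 2103 and 2887 bases for Fbxl17, 3582 and 672 for Fbxo38, 2199 and 820 for Fbxl5, and 2238 and 2635 for Fbxo30. They are 1785 and 2314 bases for Fbxw11 and 2544 and 1660 for Fbxw7. Fbxl17, Fbxo38 and Fbxl5 have no annotated 5′ UTR. For Fbxw7, 293 of 518 isoform counts were in the 5′ UTR (42, 43 and 121 with exon 5, and 0, 16 and 71 without). The share also varied between libraries: for Fbxo11 the CDS held 22.6% to 79.2% over the 6 libraries, and for Fbxl17 83.0% to 100%.

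**Figure D3:**
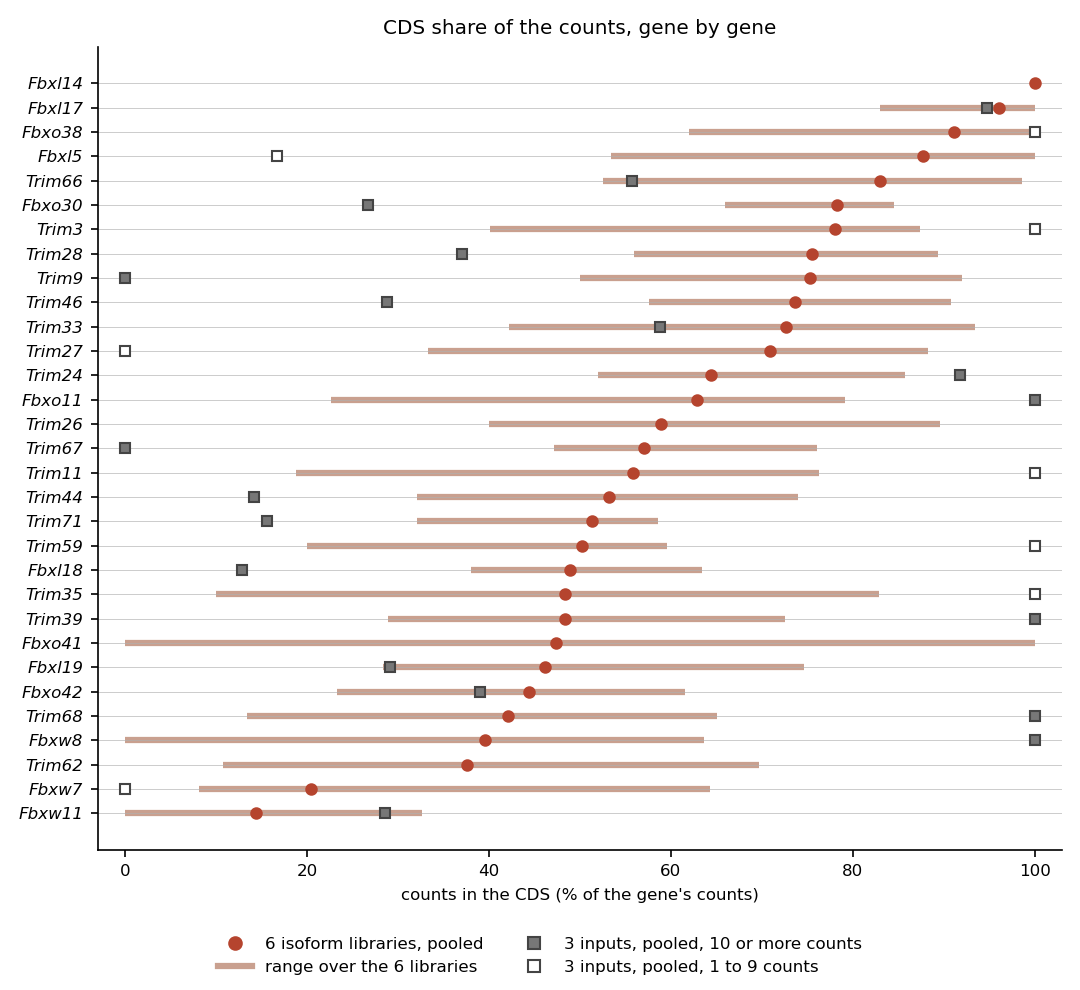
Share of a gene's counts that lie in the CDS, for the 20 most counted genes and every gene that passed a test; red points pool the 6 isoform libraries, bars span those libraries, and squares pool the 3 inputs (open where these had 1 to 9 counts). Trim67 and Trim9 have 0% in the inputs and 57.0% and 75.3% with the isoforms, Trim68 has 100% and 42.1%, and genes without a square had no input count. For Fbxl14 only a CDS is annotated.

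Summed over the 89 genes, the CDS held more of the counts in the immunoprecipitates than in the inputs. Its share was 57.0%, 55.3% and 61.2% with exon 5, 58.2%, 61.6% and 60.6% without, and 33.7%, 45.9% and 42.2% in the inputs. All 6 isoform libraries lay above all 3 inputs, 59.0% ± 2.56 (SD, n = 6) against 40.6% ± 6.26 (n = 3), a difference of 18.4 percentage points (two-sided exact permutation test, p = 0.0119, the smallest that 84 splits allow; 0.0238 after Benjamini-Hochberg adjustment over 2 tests). Over all genes of the table the difference was 20.8 points, from 46.7% to 67.4%. As a mean of each gene's own share the difference was 18.3 points and the permutation p was 0.0595. Input 3, the FLAG-GFP line, had 23.3% of these counts in the 5′ UTR, against 0.858% and 4.10% in inputs 1 and 2 and 7.51% ± 0.54 in the isoform libraries. In input 3 these were counts of Trim67 (18), Trim28 (17), Fbxo46 (15) and Trim23 (14). Over all genes of the table the 5′ UTR share of input 3 was 3.02%, against 3.42% and 2.89% in inputs 1 and 2.

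Between the isoforms this summed share was 57.8% ± 3.07 with exon 5 and 60.1% ± 1.76 without, a difference that did not pass (two-sided exact permutation p = 0.300; 3 against 3 cannot go below 0.10). Split by family, the F-box genes had 55.4%, 54.4% and 54.6% in the CDS with exon 5 and 61.1%, 62.2% and 60.9% without. These libraries did not overlap, with means of 54.8% ± 0.54 and 61.4% ± 0.70, and a difference, with minus without, of −6.58 points. Their 3′ UTR share was 38.6% ± 0.27 and 33.0% ± 1.49. The TRIM genes had 59.8% ± 5.04 and 59.0% ± 3.03 and overlapped, and over all genes of the table the shares were 67.2% ± 1.22 and 67.7% ± 1.11. The split by family is a description without a test. Leaving out any 1 of the 41 counted F-box genes kept the groups apart, with differences of −8.18 to −4.70 points. The smallest were −4.70 without Fbxo46, −4.92 without Fbxo11 and −4.94 without Fbxl5. Single libraries weighed on these: replicate 2 with exon 5 held 140 of the 180 isoform 3′ UTR counts of Fbxo46. Replicate 1 with exon 5 held 147 of the 390 of Fbxo11. With Fbxo46, Fbxo11 and Fbxl5 left out together, the libraries of the isoforms overlapped, so the separation depended on these genes.

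**Figure D4:**
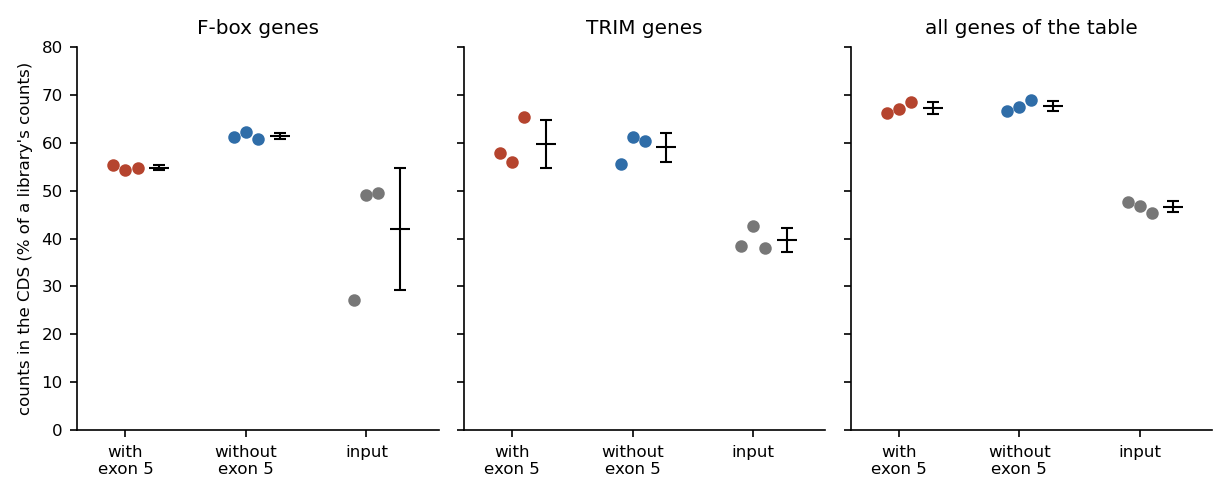
Share of each library's counts that lie in the CDS, over F-box genes, TRIM genes and all genes of the table; points are libraries, and the bar beside them is the mean ± SD (n = 3). All isoform libraries lie above all inputs in each panel, and the F-box genes are the panel where both isoforms separate, at 54.8% and 61.4%. That separation is lost when Fbxo46, Fbxo11 and Fbxl5 are left out together.

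The comparison at the centre of the series asks whether exon 5 changes which mRNAs are recovered. Of the 62 genes tested, 0 passed with edgeR (0 of 8342 genes did, 0.0% in either direction), and 0 had an unadjusted p under 0.05, where 93 of all genes did (1.11%). DESeq2 and limma-voom also called 0. The median log2 fold change, with minus without exon 5, was 0.12, against −0.03 over all genes. The SE had a median of 1.19 and was 0.66 at best, for Trim44 (log2 fold change 0.06), so only large differences could have passed.

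The libraries of the isoforms did not overlap for 5 genes higher with exon 5 (8.06%, against 6.49% of all genes) and 2 lower (against 7.43%). Trim35, which acts on pyruvate kinase M2, had 87, 97 and 102 counts with exon 5 and 10, 41 and 60 without, or 123 ± 22.5 and 37.2 ± 16.2 CPM (SD, n = 3 each). Its log2 difference was 1.71 (SE 1.24). Trim59 had 106, 94 and 69 against 25, 49 and 43 (120 ± 47.2 and 45.8 ± 14.2 CPM). Trim67 (572 ± 271 and 324 ± 29.6 CPM), Trim11 (105 ± 31.7 and 63.1 ± 9.16) and Fbxo21 were the other genes without overlap in that direction.

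Without overlap in the other direction were Fbxw11, with 44, 33 and 115 counts with exon 5 and 131, 92 and 246 without (74.5 ± 32.3 and 178 ± 68.1 CPM), and Trim71 (381 ± 129 and 658 ± 150 CPM). Their log2 differences were −1.25 (SE 1.12) and −0.79 (SE 0.93). For Fbxw11 the groups barely cleared each other, at 110.6 CPM in the highest library with exon 5 and 111.2 CPM in the lowest without. Besides Fbxw11, the lowest differences among genes with at least 50 isoform counts were −1.51 for Fbxl8 and −1.09 for Fbxl5, with overlapping libraries. The highest were 2.06 for Fbxo41, 2.03 for Fbxo48 and the 1.71 of Trim35. With exon 5, Fbxo41 was high in replicates 1 and 3 (145 and 76.0 CPM) and not in replicate 2 (19.1), against 8.63 to 39.7 CPM without. Fbxo48 was high in replicates 1 and 2 (51.4 and 86.5 CPM) and not in replicate 3 (9.62), against 6.04 to 15.1 CPM without. In these bulk immunoprecipitates, less crosslinking of an mRNA to Chtop, fewer cells holding it and less of it per cell cannot be told apart.

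**Figure D5:**
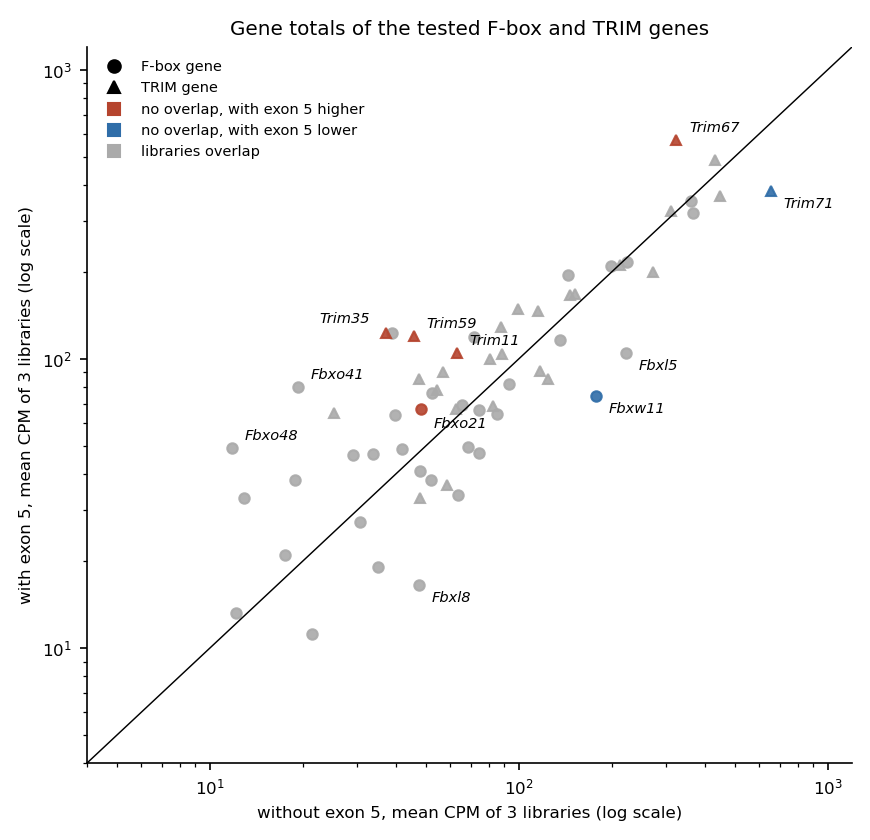
Mean level of the 62 tested genes with exon 5 against without (CPM of gene totals, 3 libraries each, both axes on a log scale); the line marks equal levels. Genes lie along the line from about 11.2 to 658 CPM, the 5 red and 2 blue genes are those whose libraries did not overlap, and 0 passed the test.

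By gene part, too, 0 genes passed between the isoforms: 0 of 53 in the CDS, 0 of 43 in the 3′ UTR and 0 of 11 in the 5′ UTR, where 0.0% of all 6376, 4984 and 661 genes passed. In each part 0 of these genes had an unadjusted p under 0.05 with edgeR, and DESeq2 and limma-voom called 0. In the CDS the highest log2 differences were those of Trim59 (2.14), Trim35 (1.83) and Trim8 (1.77), the lowest those of Fbxw11 (−2.60), Trim16 (−2.46) and Fbxo31 (−1.39), a receptor for cyclin D1. Trim59 had 57, 56 and 38 CDS counts with exon 5 and 5, 20 and 18 without, and Trim8 had 18, 25 and 64 against 6, 13 and 13; neither overlapped. Fbxw11 had 1, 8 and 0 against 6, 30 and 50, and Trim16 had 0, 2 and 18 against 39, 12 and 37; both overlapped. The libraries did not overlap for 4 CDS higher with exon 5 (6.46% of all genes), those of Trim11, Trim35, Trim8 and Trim59, and for 1 lower (6.96% of all genes). Fbxl5 was the CDS without overlap in the other direction, with 66, 74 and 39 against 172, 110 and 243 counts (−1.34, SE 1.01).

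In the 3′ UTR, Trim32, an NHL-repeat ligase of muscle and of neural progenitors, had 11, 12 and 40 counts with exon 5 and 0, 0 and 4 without. All 3 libraries with exon 5 were above the others, and its log2 difference of 4.0 (SE 1.99) was the largest of all, with an edgeR p of 0.0585 before and 0.999 after adjustment. In its CDS the counts overlapped, at 52, 25 and 55 against 17, 21 and 88. Fbxo41 (1.68) and Trim35 (1.34; 42, 49 and 46 against 9, 7 and 47 counts) came next, and Trim26 (−1.59), Fbxw11 (−1.55) and Trim24 (−1.34) were lowest. The 3′ UTR libraries did not overlap for 2 genes higher with exon 5 (5.06% of all genes) and for 4 lower (7.80% of all genes), the latter being Trim71, Trim24, Trim46 and Trim33.

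The 5′ UTR values rested on few counts. Fbxw7 had 42, 43 and 121 counts with exon 5 and 0, 16 and 71 without (log2 difference 1.74, SE 1.42), and Fbxo42 had 7, 1 and 40 against 29, 40 and 69 (−1.59, SE 1.33). Neither overlapped once scaled to the library, 1 gene in each direction, as 4.08% of all genes were higher and 7.41% lower without overlap. Trim28 (1.24) and Trim17 (1.21) were the next highest and Fbxo30 (−1.50) and Trim37 (−1.01) the next lowest.

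The authors' deposited table gives its own log2 fold changes between the isoforms for 44 of these genes in the CDS (−2.45 to 2.16), 37 in the 3′ UTR (−2.10 to 4.36) and 10 in the 5′ UTR (−6.36 to 2.68). In the authors' deposited table the ends of these ranges are Trim59 (2.16) and Trim16 (−2.45) in the CDS and Trim32 (4.36) and Fbxo25 (−2.10) in the 3′ UTR. In the 5′ UTR they are Fbxo48 (2.68) and Fbxl8 (−6.36), neither of which passed the filter on low counts for that part here. Fbxo48 had 35, 32 and 10 counts in the 5′ UTR with exon 5 and 7, 5 and 2 without. Fbxl8 had 0, 0 and 0 with exon 5 and 18, 17 and 14 without.

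Of the 89 genes, 18 share their locus with another protein-coding gene, while overlaps with noncoding genes were not counted. The sources used here do not say whether strand entered the counting. The counts of the overlapping stretches therefore cannot be told apart. In the RefSeq annotation of GRCm38.p6 this applies, among the genes described above, to Fbxo11 (with Msh6), Fbxl14 (with Wnt5b), Fbxl17 (with Gm41607), Trim28 (with Gm31649), Trim46 (with Krtcap2), Trim32 (with Astn2), Trim37 (with Ppm1e) and Trim17 (with H2aw and H3f4).

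The partners of these ligases were counted from lists of the same pathway, again against the inputs and between the isoforms. In every list 0 genes passed between the isoforms with edgeR and 0 had an unadjusted p under 0.05, and 0 passed lower than the inputs in any list. Lower at an unadjusted edgeR p under 0.05 were 1 SCF core gene and 1 E1 or E2 gene with each isoform, and 1 gene of the other cullins with exon 5. Of 9 SCF core and regulator genes tested, the scaffold Cul1 passed higher with both isoforms, at least 5.39-fold with exon 5 (adjusted p = 0.0233) and 2.85-fold without (adjusted p = 0.0353). The median of the list was −0.32 and −0.95, below the 1.03 of all genes. The COP9 signalosome, which removes Nedd8 from cullins, had 0 of 5 genes past the threshold (unadjusted p under 0.05 for 0), with medians of −1.95 and −1.79. Its most counted genes, Gps1 and Cops8, had 0.94 and −2.69 with exon 5 and 0.62 and −2.85 without.

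Of 7 F-box and TRIM genes that carry other symbols, Kdm2b, an F-box histone demethylase, passed higher with both isoforms, at least 4.78- and 3.31-fold (edgeR adjusted p = 0.0242 and 0.0323). The medians of these genes were 3.07 and 2.64, or 2.05 and 1.44 with the 3 genes at 0 in the inputs set to their bound. Of 27 other cullins and adaptors, 2 passed with exon 5 and 3 without: the BTB-Kelch adaptors Klhl11 (at least 9.75- and 10.3-fold) and Klhl9 (at least 4.94- and 4.68-fold), and Cul9 without exon 5 (log2 fold change 4.14, SE 1.22, edgeR adjusted p = 0.0471). The list's medians were 1.08 and 0.93.

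Of 21 E1 and E2 genes, 3 passed with each isoform. They were Birc6, a giant inhibitor of apoptosis with E2 activity, by 1.95 (SE 0.47) and 2.08 (SE 0.47) on the log2 scale, Ube2g2, at least 3.58- and 3.22-fold, and Ube2q1, at least 3.41- and 3.33-fold (edgeR adjusted p from 0.0191 to 0.0380). Of 21 genes whose proteins are known SCF substrates, 4 passed with exon 5 and 3 without. The histone methyltransferase gene Kmt2d rose by 3.25 (SE 0.39) and 3.35 (SE 0.40), the kinase gene Mtor by 3.69 and 3.36, and the clock gene Per2 was at least 12.2- and 6.46-fold higher, while Jun passed with exon 5 (at least 2.78-fold). The medians were 0.09 and 0.26 for the E1 and E2 genes and 1.30 and 0.50 for the substrates (0.57 and 0.35 with the 3 genes at 0 in the inputs set to their bound). These shares stand beside the 8.31% and 8.12% of all genes that passed higher.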

How the data were processed

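Per the file headers, 9 iCLIP libraries were deposited as raw counts in the 5′ UTR, CDS and 3′ UTR of each gene, with their sum. The total equalled its parts in every cell. TopHat2, DESeq2 and the build mm10 are named in the submitters' processing notes. Versions, the counting tool, strand handling and any collapsing of PCR copies were not given in these sources. The authors' deposited table of isoform comparisons holds log2 fold changes. The deposited length table gives each part in bases, per the file headers, and 27 columns of per-sample values were not used. Columns were matched to samples by line and reverse transcription primer. Symbols of all 89 genes matched RefSeq (GRCm38.p6) by name. Fbxo38 is given without coordinates.

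Tests on counts were edgeR's quasi-likelihood tests (version 4.0.16, R 4.3.3; robust, TMM, filterByExpr with minimum count 10 and minimum total 15), fitting all 9 libraries together without covariates. Adjustment was by Benjamini-Hochberg over all genes tested, and the threshold was 0.05. DESeq2 1.42.0, limma 3.58.1 (voom), other scalings and filters, a replicate block and leaving out each library were alternatives. Scripts were tested on simulated data. CPM are counts over the TMM-scaled total of the tested table of that part. Where every input was at 0, the fold is a lower bound from 3 counts per library. With 1 to 3 input counts a ratio of summed counts has its exact 95% interval. Fitted fold changes of such genes depend on the prior count.

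Genes named are the 10 F-box and 10 TRIM genes with the most counts, every gene past the threshold, and the 3 highest and 3 lowest isoform differences among genes with at least 50 isoform counts. From each pathway list, up to 4 genes past the threshold are named, otherwise the 2 most counted. Genes near the threshold, without overlap between the isoforms or with a high share in 1 part were also named, after their values were seen. The genes and lists were chosen with earlier results of these data known.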

Additional observations from a re-analysis of the deposited data

How the results depend on the processing

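The number of F-box and TRIM genes past the threshold depended on the test, the scaling and single libraries. Against input, gene totals gave 4 with exon 5, but 13 with DESeq2, 9 with limma-voom, 1 by library size alone, 8 without the filter on low counts, 0 with only the groups compared and 2 of the genes that the length table names; leaving out 1 library gave 0 to 25. Without exon 5 the 3 became 10 with DESeq2, 6 with limma-voom, 6 without the filter and 0 with only the groups compared, and 0 to 24 with 1 library left out. In the CDS the 9 became 1 with RLE factors, 1 by library size alone, 16 with only the groups compared and 4 of the genes that the length table names (1 to 19 with 1 library left out), and in the 3′ UTR the 11 became 21 with DESeq2 and 5 of the genes that the length table names (4 to 19). The 3 genes whose CDS and 3′ UTR split differed became 5 by library size alone and 1 of the genes that the length table names (0 to 4). Counts of 0 between the isoforms stayed at 0 in every alternative run. The CDS share of the summed counts, isoforms minus input, was 18.3 points as a mean of each gene's own share (permutation p = 0.0595) and 14.9 to 21.0 with 1 library left out, and the difference between the isoforms was −3.98 to −1.0.

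The labels say that replicates were handled on separate days, but the numbers were not taken as pairs, since deviations of same-numbered libraries correlated at −0.0152 to 0.0394 by the numbers in the titles and at −0.0012 to 0.0394 by those in the column names, which number the inputs otherwise. With the replicate block, gene totals gave 0 genes with exon 5 and 0 without, the CDS 3 and the relative use 0; with the block numbered as in the column names, chosen after seeing the data, they gave 0, 1, 4 and 0. The restriction to genes named by the length table was also chosen after seeing the data.

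Of the named genes' values, 1273 of 1567 recomputed ones kept direction and side of the threshold, and 26 turned sign, all of genes that did not pass. Values are log2 fold changes against input. Fbxl18 with exon 5 was −0.26 by library size alone and −0.058 to 1.43 with 1 library left out, and without exon 5 it was −0.43 with DESeq2, −0.43 with RLE factors, −0.68 by library size alone, −0.29 with only the groups compared and −0.49 to 1.01 with 1 library left out. Fbxw11 with exon 5 was 0.68 with limma-voom and −0.92 to 0.47 with 1 library left out. Trim44 was 0.057 with and 0.031 without exon 5 when no filter was set, and −0.24 to 0.066 and −0.36 to 0.074 with 1 library left out. Trim66 with exon 5 was −0.022 by library size alone, and without exon 5 it was −0.17 with DESeq2, −0.17 with RLE factors, −0.35 by library size alone, −0.10 with only the groups compared and −0.23 to 2.02 with 1 library left out. The cause of these changes was not tested. Depth limits the inputs most, where 3 counts stand for 16.8 to 21.7 CPM.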
